A study of Rattus norvegicus with 4 samples.

Results

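The genes described here encode the myostatin, activin and follistatin system of skeletal muscle: the ligands Mstn, Inhba and Tgfb1, the ligand-binding proteins Fst and Fstl3 with the related Fstl1, the type II receptors Acvr2a and Acvr2b, and the intracellular Smad3 and Smad7. They were chosen by symbol, as every probe set that the array annotation pairs with exactly 1 of these 10 names, which gave 18 probe sets for 10 of the 14217 named genes. In the soleus of male rats, 10 days after the sciatic nerve was cut, Fst was 8.64-fold higher on a genistein diet and 9.63-fold higher on a control diet than in the sham-operated muscle. Inhba was 3.24-fold lower on genistein and 4.75-fold lower on the control diet. Smad3 was 2.06-fold higher on genistein and 2.51-fold higher on the control diet, and Mstn and Tgfb1 were too dim on every array to be measured.

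The 4 groups were genistein diet denervated, genistein diet sham, control diet denervated and control diet sham muscle, each 1 array of soleus RNA pooled from 8 rats. All animals were male Wistar rats, 10 weeks old at the start and 14 weeks old by the sample labels. The genistein groups ate 0.05% genistein, a soy isoflavone with oestrogen-like activity, in their feed for 24 days, and the controls ate the same type of purified feed with corn oil in place of soybean oil. On day 14 the nerve was cut in the left leg and the right leg had a sham operation, so both pools of a diet hold the same animals, left leg against right leg. Each group is 1 pooled array, so the values carry no replicate error and no test was run.

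Myostatin and the activins belong to the transforming growth factor beta (TGF-beta) family and restrain muscle growth. They bind a type II receptor, which recruits a type I receptor and leads to phosphorylation of Smad2 and Smad3, and these enter the nucleus with Smad4. Follistatin binds and neutralises activins and myostatin, the follistatin-like protein Fstl3 does the same, and Smad7 inhibits the receptors as part of a feedback loop.

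The trimmed mean signal was 500.0 units on each array, and signals below 78.9 units, the 40th percentile of all probe sets on the 4 arrays, were set to that floor. Between 58.5% and 60.8% of probe sets exceeded it. A gene with several probe sets was represented by the brightest, a ratio was formed when at least 1 side exceeded the floor, and a gene was called when it differed by at least 2-fold, a log2 ratio of 1. Chrna1, the acetylcholine receptor alpha subunit that muscle makes after losing its nerve, read 16186 units in denervated and 1589 in sham muscle on genistein, and 20550 in denervated and 1860 in sham muscle on the control diet. Chrng and Myog, also induced by nerve loss, separated the arrays in the same way, with log2 ratios of 3.73 and 2.09 on genistein and 3.48 and 1.82 on the control diet, the Chrng ratios being lower bounds. These values go with the titles, which were used for grouping, and against a treatment label that contradicts the title in 2 samples. They do not check the diet labels. For the tissue label, all 10 muscle fibre markers listed, among them the slow troponin gene Tnni1, were measured. Actin probe sets at the 3′ end over those at the 5′ end, a measure of RNA integrity, gave a ratio that was 2.76 in denervated and 2.32 in sham muscle on genistein, and 3.79 in denervated and 2.08 in sham muscle on the control diet. The same ratio of Gapdh was 1.13 in denervated and 1.20 in sham muscle on genistein, and 1.14 in denervated and 1.24 in sham muscle on the control diet, so it was slightly lower in denervated muscle where that of actin was higher.

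**Figure D1:**
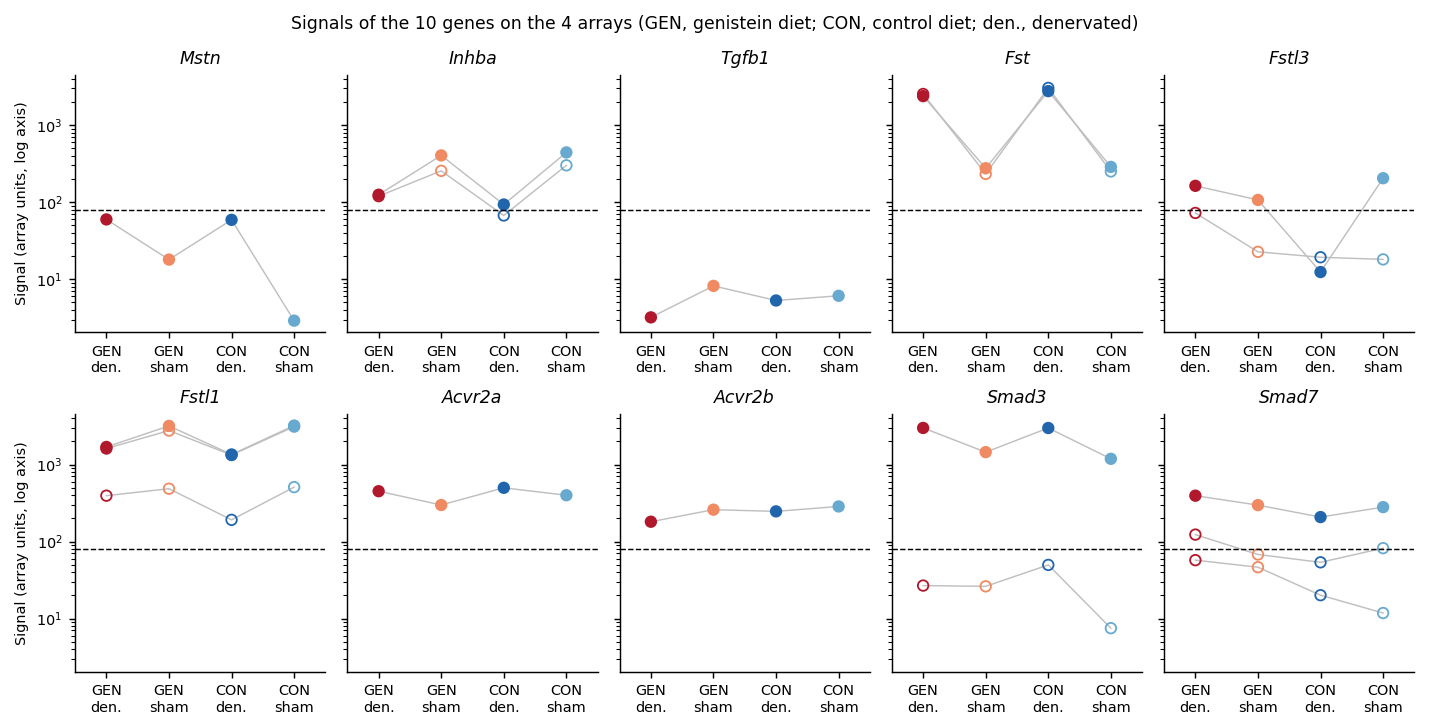
Signal of every probe set of the 10 genes on the 4 arrays, on a log axis in array units, with genistein diet denervated, genistein diet sham, control diet denervated and control diet sham muscle from left to right. Filled points are the probe set that stands for the gene, open points the others, grey lines join the values of 1 probe set and the dashed line is the floor of 78.9 units; Fst is high in both denervated pools, and Mstn and Tgfb1 lie below the floor on all 4 arrays.

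The first question is how the system differed between the denervated and the sham leg. Of the 10 genes, 8 were measured. On genistein, 2 were at least 2-fold higher (Fst and Smad3) and 1 was at least 2-fold lower (Inhba). On the control diet, 2 were higher (Fst and Smad3) and 3 were lower (Inhba, Fstl3 and Fstl1). The share of all measured genes past the same threshold was 4.96% higher and 6.57% lower on genistein, and 5.04% higher and 7.63% lower on the control diet. The median log2 ratio of the 8 genes was 0.50 on genistein, with 0.02 for all genes, and -0.32 on the control diet, with -0.0029 for all genes. Scaling the arrays to their hybridisation controls (labelled RNAs of fixed amount added to the hybridisation mix) moved the median of all genes to 0.48 on genistein and 0.35 on the control diet. Under that scaling, 87.2% of the genes called on genistein and 76.3% of those called on the control diet were higher in denervated muscle. With the scaling of the authors these shares were 43.0% on genistein and 39.8% on the control diet, so ratios near 0 have no settled direction.

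**Figure D2:**
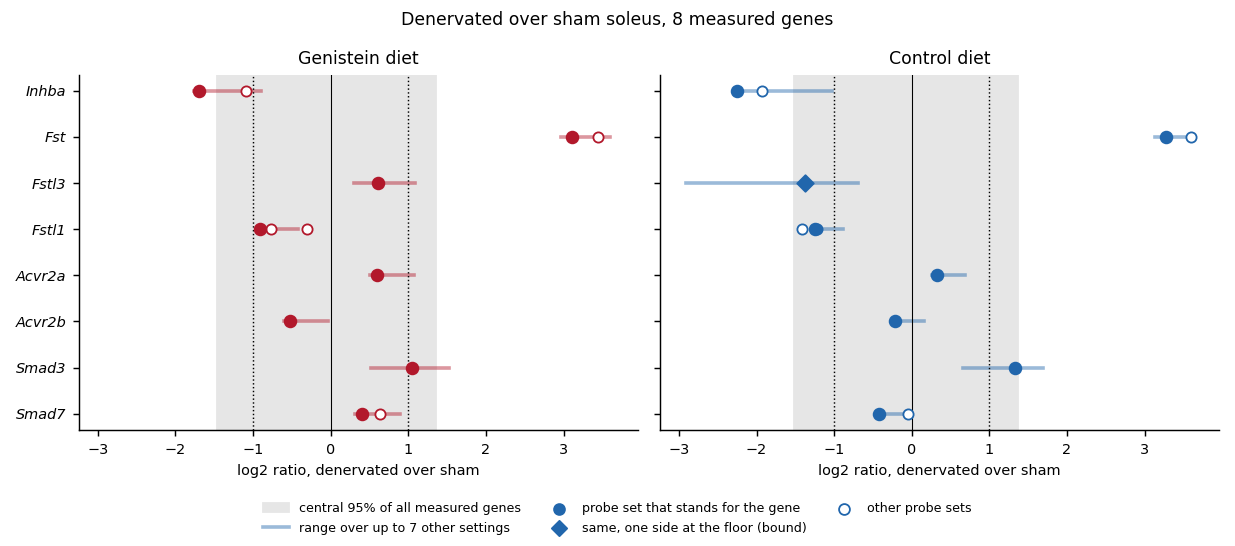
Log2 ratio of denervated over sham muscle for the 8 measured genes, on genistein (left) and on the control diet (right). Filled points are the representative probe set, the diamond a bound with 1 side at the floor, open points the other probe sets, bars the range over up to 7 other processing settings, grey bands the central 95% of all measured genes and dotted lines the 2-fold threshold; Fst lies to the right of the band on both diets.

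Among the extracellular inhibitors, Fst stood near the top of the whole array. Its representative probe set read 2387 units in denervated and 276 in sham muscle on genistein, and 2769 units in denervated and 288 in sham muscle on the control diet. Its other probe set read 2542 units in denervated and 233 in sham muscle on genistein, and 3048 in denervated and 251 in sham muscle on the control diet. Both probe sets were therefore high in the denervated pools and low in the sham pools of both diets. The log2 ratios of the first probe set were 3.11 on genistein and 3.27 on the control diet, and those of the second 3.45 on genistein and 3.60 on the control diet. Fst ranked 32 from the highest of 10810 measured genes on genistein and 25 of 10755 on the control diet. Its ratio stayed between 2.97 and 3.59 on genistein and between 3.13 and 3.63 on the control diet over all 7 other processing settings.

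Fstl3, the other binding protein, did not follow Fst. It read 163 units in denervated and 107 in sham muscle on genistein, a log2 ratio of 0.61. On the control diet it read 12.4 units in denervated muscle, below the floor, and 205 in sham muscle, which makes it at least 2.60-fold lower. The call on the control diet came from a gene that passed the floor through the sham array alone. The other probe set of Fstl3 read between 18.1 and 72.6 units and was below the floor on all 4 arrays, so the difference rests on 1 dim probe set. On the control diet 5 of the 6 other settings that gave a value kept the call, with log2 ratios as low as -2.91 under a 20th percentile floor. Averaging in the probe set below the floor gave -0.69, a loss of the call by construction. On genistein, scaling to the hybridisation controls gave 1.09, past the threshold.

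Among the ligands, only Inhba, which encodes the beta A chain of activin A, could be measured. Its representative probe set read 125 units in denervated and 405 in sham muscle on genistein, and 93.4 in denervated and 443 in sham muscle on the control diet. Both denervated pools were thus below both sham pools. The log2 ratios were -1.70 on genistein and -2.25 on the control diet, ranks 169 of 10810 genes on genistein and 82 of 10755 on the control diet, counted from the lowest. The second probe set of Inhba gave -1.09 on genistein and -1.93 on the control diet, where its denervated value of 67.3 units was below the floor. The denervated readings lie close to the floor, and below it when it is set at the 60th percentile. The ratios are then bounds, at most -0.90 on genistein and -1.03 on the control diet, so the call on genistein ends by construction.

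Mstn, the gene of myostatin, read 59.8 units in denervated and 18.0 in sham muscle on genistein, and 59.1 in denervated and 2.9 in sham muscle on the control diet. Tgfb1, the gene of TGF-beta 1, read 3.2 units in denervated and 8.2 in sham muscle on genistein, and 5.3 in denervated and 6.1 in sham muscle on the control diet. Each has 1 probe set on the array and was below the floor on all 4 arrays, so no fold is given and their mRNA was not measurable at this signal. Readings below the floor have no order.

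Fstl1, a secreted glycoprotein related to follistatin and made by fibroblasts and other stromal cells as well as by muscle, was lower after denervation. Its representative probe set read 1690 units in denervated and 3170 in sham muscle on genistein, and 1349 in denervated and 3204 in sham muscle on the control diet. The log2 ratio of -1.25 on the control diet was called and that of -0.91 on genistein was just under the 2-fold threshold. All 3 probe sets were below 0 on both diets, at -0.30 to -0.91 on genistein and -1.23 to -1.41 on the control diet. Scaled to the hybridisation controls, Fstl1 was at -0.43 on genistein and -0.88 on the control diet, which ends the call.

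Fibroblast markers were read beside Fstl1. The summed signal of the 10 fibroblast markers, all of them measured, was 46858 units in denervated and 62015 in sham muscle on genistein, and 29369 in denervated and 61880 in sham muscle on the control diet. Their median log2 ratio was -0.51 on genistein and -1.17 on the control diet, and the lower calls numbered 1 of 10 on genistein and 6 of 10 on the control diet. The share of all measured genes called lower was 6.57% on genistein and 7.63% on the control diet. Single markers ranged up to 0.15 on genistein and up to -0.23 on the control diet. Scaled to the hybridisation controls, the fibroblast marker median was -0.03 on genistein and -0.80 on the control diet. The 10 muscle fibre markers were lower too, with medians of -0.75 on genistein and -0.64 on the control diet. None of them was above -0.14 on genistein or -0.27 on the control diet. Their medians were -0.12 on genistein and -0.16 on the control diet after quantile normalization. The lowest signal anywhere on the arrays was 0.1 units, so no marker was listed at 0. The part of fibroblasts or muscle fibres in the Fstl1 ratio was not tested. In whole muscle, fewer cells of a type and less RNA per cell cannot be told apart.

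The type II receptors differed by less than 2-fold with the scaling of the authors. Acvr2a, which binds activins and myostatin, read 450 units in denervated and 298 in sham muscle on genistein, and 498 in denervated and 399 in sham muscle on the control diet, with log2 ratios of 0.59 on genistein and 0.32 on the control diet; scaling to the hybridisation controls took the value on genistein to 1.08, past the threshold. Acvr2b, its close relative and the receptor to which myostatin binds with high affinity, read 181 in denervated and 259 in sham muscle on genistein, and 246 in denervated and 285 in sham muscle on the control diet. Its log2 ratios of -0.52 on genistein and -0.21 on the control diet lay below 0, although scaling to the hybridisation controls turned the control diet value to 0.15. Each receptor has 1 probe set, and both lay within the central 95% of all measured genes on both diets.

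Smad3, the transcription factor that carries the activin, myostatin and TGF-beta signal to the nucleus, read 2983 units in denervated and 1447 in sham muscle on genistein, and 2978 in denervated and 1186 in sham muscle on the control diet. The log2 ratios of 1.04 on genistein and 1.33 on the control diet were both called, that on genistein just past the 2-fold threshold, and both denervated pools were above both sham pools. The other probe set of Smad3 read 7.5 to 49.7 units, below the floor on all 4 arrays, so averaging it in lowers the ratios by construction to 0.52 on genistein and 0.66 on the control diet and ends both calls. Smad7, the inhibitory Smad, read 394 units in denervated and 297 in sham muscle on genistein, and 208 in denervated and 280 in sham muscle on the control diet. Its log2 ratio was 0.41 on genistein and -0.43 on the control diet, neither of which reached 2-fold.

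Promoter sequences are shown for the called genes that the sequence table holds, so that their start regions can be compared: Fstl3, Inhba and Fstl1, which were lower on the control diet, and Smad3, which was higher. Windows run from 250 bases before to 50 bases after the start site, are from RefSeq on the GRCr8 rat assembly, and were matched by symbol for 8 of the 10 genes (not for Fst and Mstn). Each line gives the coding strand 5′ to 3′. Capitals mark CAGAC, a Smad-type element, CANNTG, the E-box bound by myogenic factors, and GGGCGG, the GC box, on either strand.
Inhba (chr17:53804459-53804758, minus strand): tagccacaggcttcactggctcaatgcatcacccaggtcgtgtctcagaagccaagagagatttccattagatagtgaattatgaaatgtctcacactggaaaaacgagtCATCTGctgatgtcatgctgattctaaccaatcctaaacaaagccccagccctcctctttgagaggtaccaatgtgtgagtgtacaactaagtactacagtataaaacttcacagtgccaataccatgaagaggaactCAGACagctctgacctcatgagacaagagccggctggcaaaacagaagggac
Fstl3 (chr7:10579795-10580094, minus strand): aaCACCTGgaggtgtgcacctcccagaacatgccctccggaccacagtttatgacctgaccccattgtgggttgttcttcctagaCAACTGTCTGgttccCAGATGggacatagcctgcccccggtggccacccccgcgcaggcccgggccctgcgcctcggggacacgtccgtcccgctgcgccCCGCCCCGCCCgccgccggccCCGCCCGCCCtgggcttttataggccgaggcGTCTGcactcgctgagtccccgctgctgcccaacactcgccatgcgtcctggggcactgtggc
Fstl1 (chr11:76454004-76454303, minus strand): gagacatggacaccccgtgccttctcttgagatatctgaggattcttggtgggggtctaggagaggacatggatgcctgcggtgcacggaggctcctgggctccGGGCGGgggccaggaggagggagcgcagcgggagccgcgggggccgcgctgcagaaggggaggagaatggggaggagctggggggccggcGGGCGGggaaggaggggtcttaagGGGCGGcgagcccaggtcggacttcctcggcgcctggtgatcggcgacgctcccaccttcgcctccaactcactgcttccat
Smad3 (chr8:73132275-73132574, minus strand): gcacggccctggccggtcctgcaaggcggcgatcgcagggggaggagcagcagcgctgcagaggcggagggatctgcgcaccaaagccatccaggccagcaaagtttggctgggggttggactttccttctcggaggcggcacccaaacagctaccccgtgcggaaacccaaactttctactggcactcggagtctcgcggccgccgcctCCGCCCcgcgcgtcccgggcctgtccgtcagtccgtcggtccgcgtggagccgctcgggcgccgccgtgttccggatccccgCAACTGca

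The windows differ in composition and in these motifs, counting the first transcribed base as 1 and the base before it as -1. The Inhba window has 45.7% G and C, against 69.0% for Fstl3, 68.7% for Fstl1 and 69.7% for Smad3. It holds CAGAC from -2 and an E-box from -140, and the annotated Inhba gene extends 6434 bases further upstream of the start site used. The Fstl3 window holds CAGAC on the other strand from -160 and -13, E-boxes from -248, -165 and -150, and 4 GC boxes, some of them overlapping, and its E-box from -165 shares a base with the CAGAC match from -160. The Fstl1 window holds 3 GC boxes and neither of the other motifs, and the Smad3 window holds 1 GC box and an E-box from 43. Of 33469 rat promoter windows of that length, 50.1% hold CAGAC, 72.1% an E-box and 33.1% a GC box, and a match is a description of letters, not of binding.

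The second question is whether the diet changed these genes. In denervated muscle 1 of the 8 measured genes, Fstl3, was past 2-fold, higher with genistein, and 0 were lower, where 1.02% of all measured genes were higher and 0.124% lower. In sham muscle 0 of 8 were called in either direction, where 0.324% of all genes were higher and 0.287% lower. Of all genes called by diet in denervated muscle 89.2% were higher on genistein, against 69.3% under median scaling and 79.1% after quantile normalization. The diet comparison in denervated muscle and the denervation comparison on the control diet share the control diet denervated array.

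Fstl3 read 163 units on genistein and 12.4 on the control diet in denervated muscle, at least 2.07-fold higher on genistein. In sham muscle it read 107 on genistein and 205 on the control diet, a log2 ratio of -0.94. The control diet denervated pool was thus the lowest of the 4 and the control diet sham pool the highest. The log2 ratio of 1.05 in denervated muscle is a lower bound just past the threshold. Of 6 other settings, 3 kept the call, namely a 20th percentile floor (2.59), no floor (2.14) and scaling to the hybridisation controls (1.33). It was 0.998 under median scaling and 0.99 under quantile normalization, just under the threshold, and 0.52 when the probe set below the floor was averaged in, which shrinks it by construction.

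Smad7 in denervated muscle read 394 units on genistein and 208 on the control diet, a log2 ratio of 0.92, which 1.41% of measured genes exceeded. The second of its probe sets read 123 units on genistein and 53.7, below the floor, on the control diet, a log2 ratio of at least 0.64. Its remaining probe set was below the floor throughout. In sham muscle the representative probe set read 297 on genistein and 280 on the control diet, a log2 ratio of 0.09. The actin 3′ to 5′ ratio also differed between the denervated pools, at 2.76 on genistein and 3.79 on the control diet, while that of Gapdh was 1.13 on genistein and 1.14 on the control diet. Their part in the Smad7 and Fstl3 values was not tested.

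**Figure D3:**
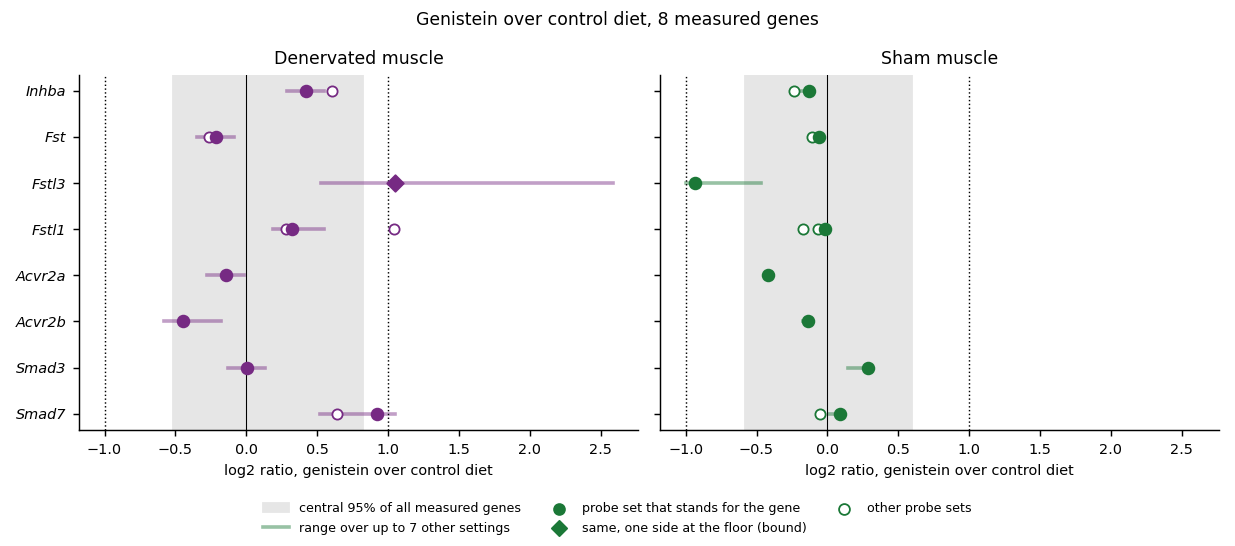
Log2 ratio of genistein over control diet for the 8 measured genes, in denervated muscle (left) and sham muscle (right), with the symbols, bars, bands and dotted lines of the denervation plot. Fstl3 is a lower bound of 1.05 in denervated muscle and -0.94 in sham muscle, Smad7 is at 0.92 in denervated muscle, and Fst is at -0.21 in denervated and -0.06 in sham muscle.

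The other members were under 2-fold by diet on their representative probe sets. Fst was at log2 ratios of -0.21 in denervated and -0.06 in sham muscle, and Smad3 at 0.0026 in denervated and 0.29 in sham muscle. Inhba was at 0.42 in denervated and -0.13 in sham muscle. Fstl1 was at 0.32 in denervated and -0.02 in sham muscle on its representative probe set. Its dimmest probe set, however, read 394 units on genistein and 191 on the control diet in denervated muscle, a log2 ratio of 1.04, while the remaining probe set gave 0.28. Acvr2a was at -0.15 in denervated and -0.42 in sham muscle and Acvr2b at -0.45 in denervated and -0.14 in sham muscle, on the low side of 0 in each. Fibroblast markers, beside which Fstl1 is read, had a median of 0.72 in denervated and 0.03 in sham muscle. The macrophage and leukocyte markers had one of 0.92 in denervated and 0.26 in sham muscle. In denervated muscle 4 of the 9 measured were past 2-fold, higher with genistein, where 1.02% of all measured genes were. That count was 2 under median scaling, 3 under quantile normalization and 5 under scaling to the hybridisation controls. Endothelial markers had a median of 0.66 in denervated and -0.06 in sham muscle. Adipocyte markers had one of 0.98 in denervated and -0.07 in sham muscle. Of the 6 measured in denervated muscle, 3 were past 2-fold, higher with genistein, up to 1.33. Among these, Cidec passed the floor on genistein only, with 71.3 units on the control diet. Under median scaling or quantile normalization 2 were called, and 4 under scaling to the hybridisation controls. The summed fibroblast and leukocyte signals in denervated muscle were 46858 and 3580 units on genistein and 29369 and 1963 units on the control diet. Muscle fibre markers went the other way, with a median of -0.26 in denervated and -0.15 in sham muscle. After quantile normalization the fibre median in denervated muscle was -0.05. Satellite cell markers had a median of -0.18 in denervated muscle. The median there was 0.39 for pericyte and smooth muscle markers and 0.48 for Schwann cell and nerve markers. The part of any of these cell types in the diet ratios was not tested.

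The third question is whether the response to denervation differed between diets. The log2 ratio of denervated over sham on genistein minus that on the control diet was at least 1 in size for 1 of the 8 genes, Fstl3, where 2.74% of all genes measured on both diets were that far apart. For Fstl3 it was 1.99, a lower bound because 1 side is at the floor. Smad7 was next at 0.84, then Inhba at 0.55, Fstl1 at 0.34 and Acvr2a at 0.27. Fst was at -0.16, Smad3 at -0.29 and Acvr2b at -0.31. The SD of this difference was 0.38 across genes above the floor on all 4 arrays, so 5 of the 8 lay within 1 such SD of 0.

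The rest of the TGF-beta, activin and bone morphogenetic protein (BMP) pathway was read from 7 lists of 87 genes, of which 76 were on the array. Of these, 64 were measured on genistein, with 11 at least 2-fold higher and 4 lower in denervated muscle, and 66 on the control diet, with 8 higher and 10 lower. These are 17.19% higher and 6.25% lower on genistein, where all genes gave 4.96% higher and 6.57% lower, and 12.12% higher and 15.15% lower on the control diet, where all genes gave 5.04% higher and 7.63% lower. Members and lists were chosen with earlier results of these data known, so their shares beside those of all genes are a description only. Scaled to the hybridisation controls, 19 were higher and 1 lower on genistein, and 14 higher and 6 lower on the control diet, so the balance on the control diet turned. The 8 genes higher on the control diet were all higher on genistein too, where they were 72.7% of the 11; of all genes called higher, 69.8% of those on genistein and 69.0% of those on the control diet were shared. The lists of lower genes shared 3, Col1a1, Fmod and Postn, which were 75.0% of those on genistein and 30.0% of those on the control diet, where over all genes 72.3% of the lower calls on genistein and 62.5% on the control diet were shared. Some unshared genes lay just under the threshold on the other diet, such as Tgfbr1 at 0.95 and Id3 at 0.89 on the control diet. Of the 36 called pathway ratios over the 4 comparisons, 33 were still at least 2-fold under median scaling, 34 under quantile normalization and 29 under scaling to the hybridisation controls.

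Among the other ligands of the family, Bmp2, which signals through the BMP branch, read 862 units in denervated and 121 in sham muscle on genistein, and 925 in denervated and 166 in sham muscle on the control diet, with log2 ratios of 2.83 on genistein and 2.48 on the control diet. Tgfb2, a TGF-beta isoform, was at 1.28 on genistein and 1.33 on the control diet. Its other probe set was at 0.89 on the control diet, under 2-fold. Gdf11, the closest relative of myostatin, was at 0.47 on genistein and 0.40 on the control diet and was not called. Of the 16 ligands on the array, 10 were measured on genistein and 12 on the control diet, with 2 at least 2-fold higher and 0 lower on each. All measured genes gave 4.96% higher and 6.57% lower on genistein, and 5.04% higher and 7.63% lower on the control diet.

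Among receptors and convertases, Tgfbr1, which encodes the type I receptor ALK5 used by TGF-beta and myostatin, read 4214 units in denervated and 2032 in sham muscle on genistein, and 4100 in denervated and 2120 in sham muscle on the control diet. Its log2 ratios were 1.05 on genistein, just past the threshold, and 0.95 on the control diet. Eng, the endothelial coreceptor endoglin, was at -0.04 on genistein and -1.08 on the control diet, where the endothelial markers had medians of -0.43 on genistein and -0.97 on the control diet, and their part was not tested. Acvr1b, the activin type I receptor, and Tgfbr2 were not analysed here. Furin and Bmp1, proteases that cleave precursors of the family, were at 0.55 and 0.38 on genistein and 0.18 and 0.02 on the control diet.

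Among latent binding proteins and extracellular inhibitors, Ltbp1, which tethers latent TGF-beta to the matrix, read 3215 units in denervated and 471 in sham muscle on genistein, and 3310 in denervated and 626 in sham muscle on the control diet, with log2 ratios of 2.77 on genistein and 2.40 on the control diet. Its relative Ltbp4 was at -0.55 on genistein and -1.02 on the control diet, and Ltbp2 was at most -1.20 on genistein and -0.76 on the control diet. Chrd, the BMP antagonist chordin, was at 1.26 on genistein and 1.48 on the control diet. The matrix proteoglycan Fmod, fibromodulin, which binds TGF-beta, was at -1.44 on genistein and -1.66 on the control diet.

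Among regulators inside the cell, Tgif1, a corepressor of Smad2 and Smad3, read 2480 units in denervated and 322 in sham muscle on genistein, and 2456 in denervated and 407 in sham muscle on the control diet, with log2 ratios of 2.95 on genistein and 2.59 on the control diet. Skil, which encodes the corepressor SnoN, was at 1.42 on genistein and 1.22 on the control diet. Pmepa1, a membrane protein that binds Smad2 and Smad3, was at 1.22 on genistein and 0.77 on the control diet. Smad2 was at 0.23 on genistein and 0.18 on the control diet and Smad4 at 0.64 on genistein and 0.50 on the control diet, none called. Of the 14 Smads and regulators measured, 3 on genistein and 2 on the control diet were past 2-fold and higher, and 0 were lower. The shares over all measured genes were 4.96% higher and 6.57% lower on genistein, and 5.04% higher and 7.63% lower on the control diet.

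**Figure D4:**
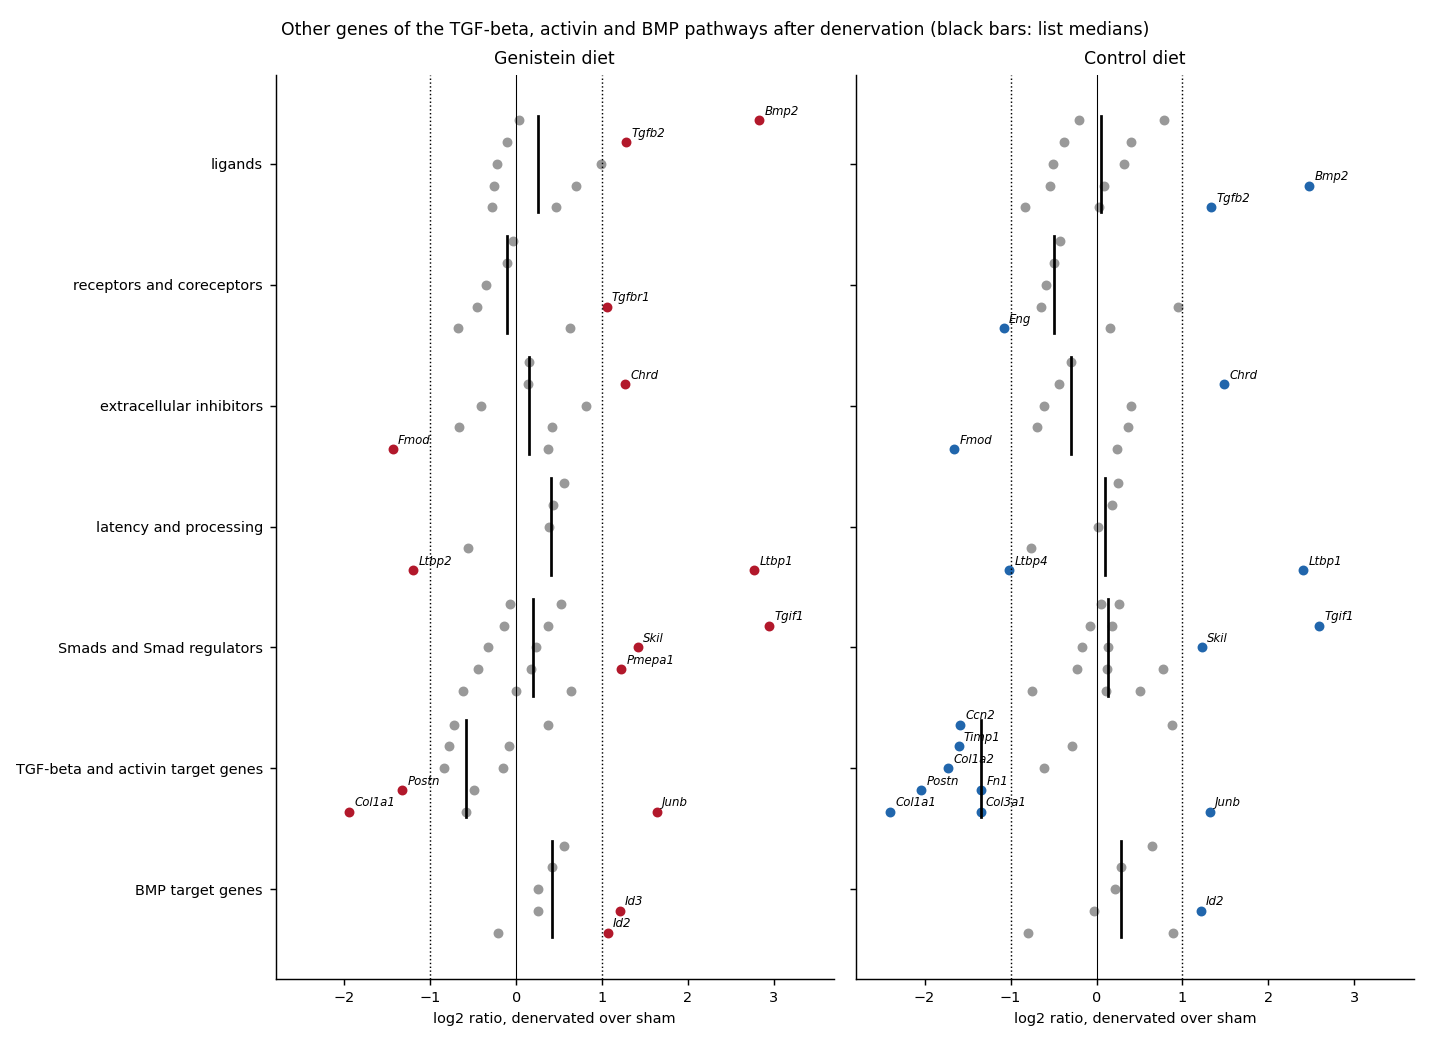
Log2 ratio of denervated over sham muscle for the measured genes of the 7 pathway lists, on genistein (left) and on the control diet (right). Coloured and named points are at least 2-fold, grey points are not, black bars are list medians and dotted lines the 2-fold threshold; the TGF-beta and activin target genes have medians of -0.58 on genistein and -1.35 on the control diet.

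The list of genes that TGF-beta and activin are known to induce holds many matrix genes. Of 11 measured, 2 on genistein and 7 on the control diet were at least 2-fold lower and 1 was higher on each. Over all measured genes, 6.57% were lower and 4.96% higher on genistein, and 7.63% lower and 5.04% higher on the control diet. The list medians were -0.58 on genistein and -1.35 on the control diet. Under scaling to the hybridisation controls the medians were -0.17 on genistein and -0.98 on the control diet. Postn, periostin, was at -1.33 on genistein and -2.04 on the control diet, and Col1a1, a chain of type I collagen, at -1.94 on genistein and -2.40 on the control diet. On the control diet Ccn2 (-1.59), Timp1 (-1.61), Col1a2 (-1.73), Col3a1 (-1.35) and Fn1 (-1.35) were called too. Junb, a transcription factor of the AP-1 family, went the other way, at 1.64 on genistein and 1.32 on the control diet. So did Ccn1, under 2-fold, at 0.37 on genistein and 0.87 on the control diet. The list does not hold Tgif1, Skil and Pmepa1, given above among the regulators, which were higher in denervated muscle on both diets. Nor does it hold Smad7, at 0.41 on genistein and -0.43 on the control diet, so its medians describe the listed genes only. Col1a1, Col1a2 and Col3a1 also stand in the fibroblast marker list, whose values are given above with Fstl1, and the part of fibroblast content was not tested.

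Among BMP target genes, Id2 and Id3, inhibitors of myogenic transcription factors, were at 1.06 and 1.21 on genistein and at 1.21 and 0.89 on the control diet. Of 7 measured, 2 on genistein and 1 on the control diet were at least 2-fold higher and 0 lower. All measured genes gave 4.96% higher and 6.57% lower on genistein, and 5.04% higher and 7.63% lower on the control diet. The list medians were 0.42 on genistein and 0.28 on the control diet, which stayed above 0 under the other scalings.

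By diet in denervated muscle, 3 of 64 measured pathway genes, all ligands, were past 2-fold with genistein higher, and 0 were lower: Bmp4 (1.02), Bmp5 (1.16) and Gdf10 (1.28). That is 4.69% higher, where 1.02% of all genes were, and the count ranged from 0 with the floor at the 60th percentile to 9 with it at the 20th, of which 1 was lower. Bmp4 was just past the threshold. On the control diet Bmp5 read 97.0 units and Gdf10 98.8 in denervated muscle, close to the floor of 78.9. In sham muscle 0 of 66 were called. The TGF-beta and activin targets in denervated muscle had a median of 0.66 by diet with 0 of 10 called (2 after quantile normalization or spike-in scaling), and the 64 pathway genes a median of 0.23.

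For the members above the floor on all arrays whose signals spanned at least 1 log2 unit, the pattern was compared by the Euclidean distance between log2 signals centred on each gene, over the 4 arrays and 9297 genes above the floor on all of them. Nearest to Fst were Paqr8 (distance 0.11), a membrane progestin receptor, Cdkn1a (0.16), which encodes p21 and halts the cell cycle, and Hdac4 (0.22). Hdac4 belongs to the class II histone deacetylases. Nearest to Fstl1 were Serpinh1 (0.04), the collagen chaperone, Lamc1 (0.04), a laminin chain, and Myh6 (0.06), alpha cardiac myosin. Nearest to Inhba were Tppp (0.13), Plbd1 (0.16) and Dbndd2 (0.17), and nearest to Smad3 were Pinlyp (0.04), Cdo1 (0.05) and Stx6 (0.07). With 4 arrays such closeness is a description only.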

How the data were processed

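RNA of the soleus was measured on Affymetrix arrays, 1 per group, each a pool of 8 rats, and labelled with a 3′ IVT kit, per the labels' protocols. The values deposited by the authors are signal intensities on a linear scale, a single value for each probe set; GCOS 1.1 is named in the submitters' processing notes, and the scaling target and genome build are not given in the sources used here. No scaling was added in the main setting.

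Of 31099 probe sets, 57 controls were set aside; 20826 had 1 gene symbol, 436 several and 9780 none listed, and 20758 of the gene identifiers matched GRCr8 with 0 symbols changed. Signals under the floor (78.9 units) were raised to it before log2. No test was run. Scatter between probe sets of a gene had an SD of 0.37 (denervation, genistein) and 0.36 (denervation, control diet), and 0.25 (diet, denervated) and 0.27 (diet, sham); the number of arrays limits precision. All members, pathway genes past 2-fold, a few fixed receptors and convertases, and the 3 genes nearest in pattern are named. Members and lists were chosen with earlier results of these data known. Alternatives were 3 other scalings, 2 other floors, log2(signal + 32) with no floor, and the mean of probe sets. The calls were checked on simulated data, with changes well past 2-fold put into genes well above the floor only. That check does not cover dim genes, ratios near the threshold or probe sets of a gene that differ. Python 3.11.15, numpy 2.4.6 and pandas 2.3.3 were used.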

Additional observations from a re-analysis of the deposited data

Results flagged for a closer look

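The genes below had log2 ratios on opposite sides of 0 in the 2 diets or in the 2 muscles. Each group is 1 array and none of these differences was tested. Of the ratios given, only those of Fstl3 include any past 2-fold, and the sham values of Inhba and Fstl1 lie within the scatter between probe sets of a gene (SD 0.27). The denervation log2 ratio was 0.61 on genistein and -1.38 on the control diet for Fstl3, a difference of at least 1.99 that rests on 1 dim probe set. It was 0.41 on genistein and -0.43 on the control diet for Smad7, a difference of 0.84. The control diet value for Smad7 was -0.06 with spike-in scaling and -0.16 with the mean of probe sets, both close to 0. By diet, the log2 ratio of Inhba was 0.42 in denervated and -0.13 in sham muscle (0.55 apart), and that of Fstl1 0.32 and -0.02 (0.34 apart). By diet Fstl3 was at 1.05 in denervated and -0.94 in sham muscle, 1.99 apart, the same 4 readings as its difference above.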

How the results depend on the processing

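No paired analysis was possible because each group is 1 pooled array. The 7 alternatives could hardly turn the sign of a called ratio, so only the calls are given. The members called after denervation numbered 3 on genistein (5 with spike-in scaling) and 5 on the control diet (3 with the mean of probe sets). With the 20th percentile floor they numbered 4 on genistein and 6 on the control diet, and with no floor 6 on the control diet. The member added there was Mstn, called higher, which lies below the main floor on all arrays. By diet in denervated muscle 1 was called, and 0 with median scaling, quantile normalization, the floor at the 60th percentile or the mean of probe sets, and 2 with spike-in scaling. The 1 member whose responses differed by at least 1 between diets was lost (0) with the 60th percentile floor and the mean of probe sets. At the 60th percentile floor Fstl3 has no ratio in any comparison. Spike-in scaling moved the members' median to 0.98 on genistein, against 0.50, and to 0.0455 on the control diet, against -0.32. Pathway genes called by diet in denervated muscle, 3, became 6 with spike-in scaling, 9 with the 20th percentile floor and 0 with the 60th, and in sham muscle 0 became 1 with the 20th percentile floor or with no floor. Of all genes, 1246 were called after denervation on genistein, 2046 with spike-in scaling and 1905 with the 20th percentile floor, and 1363 on the control diet, 2127 with the 20th percentile floor. By diet in denervated muscle 120 were called, 235 with spike-in scaling, 573 with the 20th and 33 with the 60th percentile floor and 316 with no floor; in sham muscle 66 were called, 682 with the 20th and 8 with the 60th percentile floor and 409 with no floor. Of the genes called by diet in denervated muscle 89.2% were higher on genistein, against 69.3% with median scaling, 79.1% with quantile normalization and 94.9% with spike-in scaling. Signals near the floor limit Inhba, Fstl3 and Smad7, and a lower floor adds calls among dim genes by construction.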
